A study of Mus musculus with 16 samples.

Results

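The lysosome is the acidic compartment in which cells break down protein, lipid, glycan and nucleic acid. Its soluble enzymes are cathepsins, glycosidases, lipid hydrolases and small activator proteins, and most of them work only at acid pH. That pH is kept by the vacuolar proton pump, which couples ATP hydrolysis in a cytosolic sector to proton transport through a membrane sector. The transcription factors TFEB and TFE3 can raise many of these genes together by binding a palindromic promoter element that contains CACGTG. The genes described here are 34 named lysosomal genes, all 34 of which were found among the 12321 genes of the expression table and passed the filter on low values. They comprise 17 enzymes and enzyme activators, 6 proton pump subunits (the Atp6 genes), 8 membrane, transport and other proteins, and Sqstm1, Tfeb and Tfe3. The list was given by symbol, with earlier results of these data known.

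Messenger RNA was sequenced in 16 libraries of LKR10, an established mouse lung adenocarcinoma line. The 4 groups, of 4 libraries each, were 2D shGFP, 2D shAnkrd35, 3D shGFP and 3D shAnkrd35. All groups shared the parental line, infection with a pLKO lentivirus, selection in puromycin at 4 µg/ml for 48 h, another 96 h of growth, and complete DMEM, per the labels. The hairpin was against GFP, as the control, or against Ankrd35, and growth was as a monolayer (2D) or in 0.5% methylcellulose (3D), a gel in which cells grow without a flat support. The labels name 1 hairpin target in each arm and do not say whether the 4 libraries of a group came from separate infections or cultures, so a p-value here speaks of the spread among these libraries, which may be technical.

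Levels are given as CPM, read counts scaled by the effective library size as counts per 1 M reads, over library totals of 13.82 to 28.72 M reads. Ankrd35 itself had 2, 3, 6 and 7 reads in monolayer with shGFP against 2, 6, 7 and 1 with shAnkrd35. In methylcellulose it had 14, 17, 16 and 16 reads with shGFP against 12, 11, 9 and 9 with shAnkrd35. An exact two-sided permutation test over 70 assignments gave p = 0.657 in 2D and p = 0.143 in 3D, so a lower level of the target was not detectable at this depth and the hairpin groups are named by their labels. Epithelial markers (6 of 8 analysed, keratins, Cdh1 and Epcam among them) summed to 5260 to 8560 CPM over the 16 libraries, while 0 of 7 lung epithelial markers, Nkx2-1 and Sftpc among them, were among the genes analysed here. Library 1 of 2D shAnkrd35 stood apart, with 2110 CPM of the ribosomal RNA-like Gm23935 and 1420 CPM of Lars2, where the other 15 libraries reached at most 753 and 469 CPM. Libraries also differed in how expression followed the GC content of transcripts. That slope, in log2 units per 10% GC, was -0.100 to 0.288 in 2D shGFP, 0.261 to 0.528 in 2D shAnkrd35, -0.295 to -0.233 in 3D shGFP and -0.265 to -0.122 in 3D shAnkrd35.

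Promoters of 30 of the 34 genes were found in the RefSeq table for GRCm38.p6, as windows from 250 bases before to 50 after the annotated start. Those of Atp6v1h, Atp6v1b2, Ctsb and Npc1 were not analysed here. The element TCACGTGA, which reads the same on both strands, occurred in 6 of the 30 genes (20%), against 1.12% of all 27025 genes with a window and 2.31% of the 9098 tested genes with one. The shorter TCACGTG, searched on both strands and contained in the first, occurred in 10 of 30 (33.3%), against 4.29% and 7.16%. Its core CACGTG occurred in 11 of 30 (36.7%), against 8.09% and 11.9%. The 6 genes with the full element were the enzymes Ctsa, Ctsd and Gla, the channel Mcoln1 and the pump subunits Atp6v0d1 and Atp6v1a, and they are shown because Atp6v1a and the other 5 moved opposite ways in monolayer (values below). A match in a window is a description of its letters and not evidence of binding. The element was looked for because it is known from genes of this kind, so its excess over all genes is no new result. Each line gives RefSeq sequence on the gene's strand, 5′ to 3′, with the element in capitals. The position of its first base is counted from the annotated start, with no base numbered 0.
Ctsa, chr2:164833734-164833772, plus strand, element at -13: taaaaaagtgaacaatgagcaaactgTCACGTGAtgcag
Ctsd, chr7:142387893-142387952, minus strand, element at -99: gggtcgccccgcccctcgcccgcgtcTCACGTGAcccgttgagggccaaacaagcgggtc
Gla, chrX:134601167-134601226, minus strand, element at -195: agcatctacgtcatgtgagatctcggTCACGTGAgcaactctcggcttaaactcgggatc
Mcoln1, chr8:3500447-3500506, plus strand, element at -46: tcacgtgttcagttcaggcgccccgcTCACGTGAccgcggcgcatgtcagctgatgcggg
Atp6v0d1, chr8:105566050-105566079, minus strand, element at -4: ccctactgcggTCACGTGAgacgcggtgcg
Atp6v1a, chr16:44139358-44139417, minus strand, element at -132: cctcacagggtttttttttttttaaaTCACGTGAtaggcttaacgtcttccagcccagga
Ctsa held another copy at 5, just inside the transcript, and Gla another at -228.

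All 34 genes were well expressed. Their means over the 16 libraries ran from 16 to 1020 CPM, and the lowest count of any of them in any library was 206 reads. Per kilobase of annotated exon, the highest mean levels were those of Psap, the precursor of the sphingolipid activator proteins (327 CPM per kb), Sqstm1, the autophagy receptor p62 (304 CPM per kb), Ctsd, an aspartic protease (153 CPM per kb), and Lamp1, a major glycoprotein of the lysosomal membrane (143 CPM per kb). The lowest were the cholesterol transporter Npc1 (3.65 CPM per kb), the alpha-galactosidase Gla (4.89 CPM per kb), Tfeb (5.14 CPM per kb) and the pump subunit Atp6v1h (5.29 CPM per kb). Enzymes and pump subunits overlapped in level, since the pump subunit Atp6ap1 (44.1 CPM per kb) lay between the enzymes Ctsa (39.2 CPM per kb) and Ctsl (46.8 CPM per kb). Exonic length was that of all annotated exons of a gene merged, so genes with many isoforms are placed low.

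**Figure D1:**
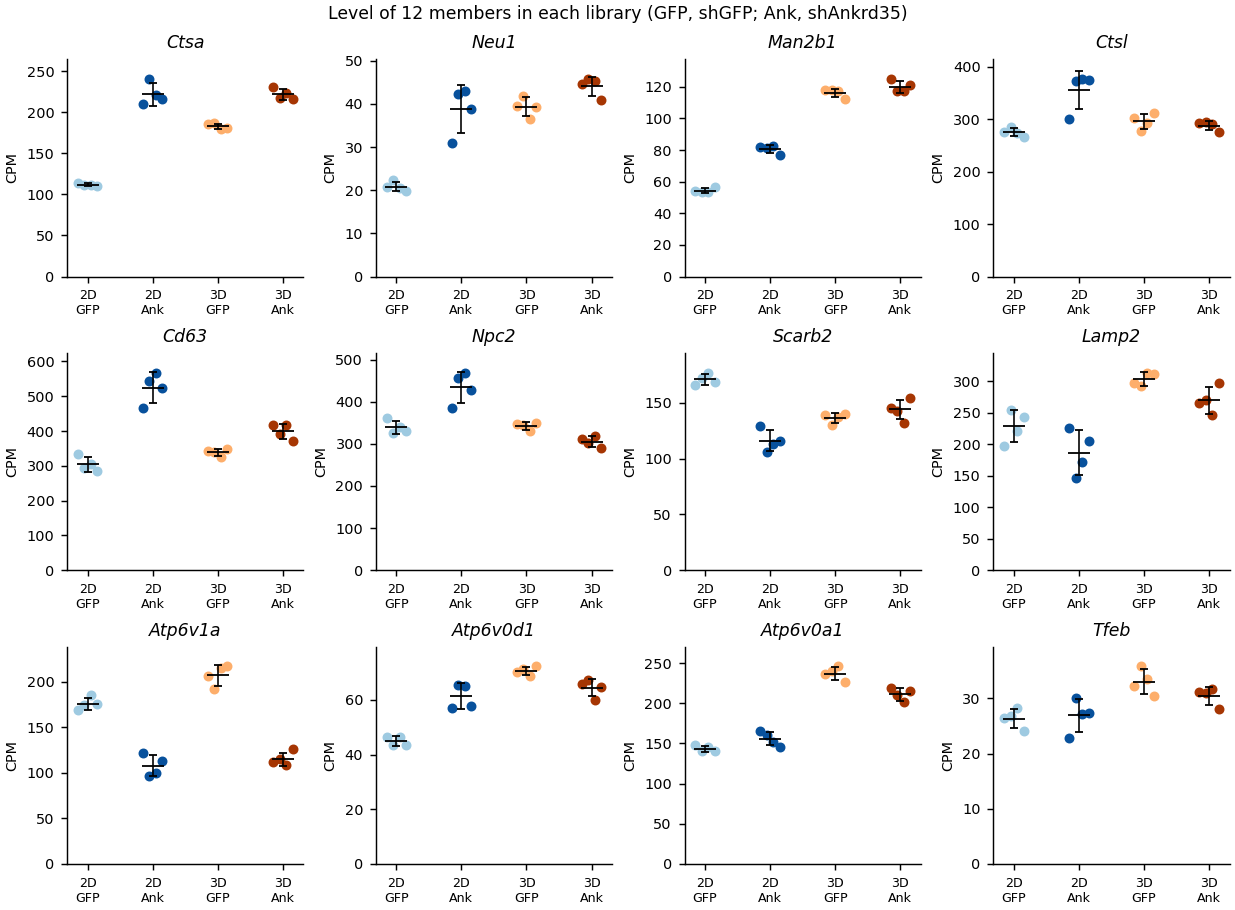
Level in CPM (vertical axes, each from 0) of 12 lysosomal genes in each of the 16 libraries, in the order 2D shGFP, 2D shAnkrd35, 3D shGFP and 3D shAnkrd35. Points are libraries, and black bars are group means with SD. Ctsa is lowest in the 4 libraries of 2D shGFP (110 to 114 CPM), and Atp6v1a is lower in both shAnkrd35 groups (96.9 to 126 CPM) than in both shGFP groups (169 to 217 CPM).

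In monolayer, most of the 17 enzymes and activators were higher with the Ankrd35 hairpin than with the GFP hairpin, while the catalytic subunit of the pump was lower. Of the 34 genes, 23 rose and 5 fell (limma, adjusted p under 0.05), against 29% and 28.8% of all 12320 genes tested. Their median log2 fold change was 0.31, where that of all genes was 0.01. Groups did not overlap for 20 of the genes that were higher and 4 that were lower, against 22.3% and 17.5% of all genes. Enzymes and activators had 13 of 17 higher and 1 lower, with a median of 0.38. Pump subunits had 5 of 6 higher and 1 lower, with a median of 0.19. The 8 membrane, transport and other proteins had 5 higher and 2 lower, with a median of 0.27.

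Among the enzymes, Ctsa encodes cathepsin A, a carboxypeptidase that also shields the sialidase Neu1 and beta-galactosidase in a complex. Its levels were 114, 111, 112 and 110 CPM in 2D shGFP and 210, 241, 221 and 216 CPM in 2D shAnkrd35. The groups were far apart, at 1.98 times the level (log2 0.99, SE 0.04, adjusted p = 3.01e-11). Neu1, which removes sialic acid from glycans, had 20.7, 22.3, 20.5 and 19.7 CPM against 31.0, 42.2, 42.9 and 38.8 CPM. All shAnkrd35 libraries again lay above all shGFP ones, and library 1 was the lowest of them (0.89, SE 0.08, adjusted p = 2.4e-07). The third member of that complex, the beta-galactosidase Glb1, changed less, from 39.0 to 44.1 CPM to 51.9 to 58.4 CPM (0.38, SE 0.05, adjusted p = 1.21e-05).

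Other glycosidases followed. Gusb, the beta-glucuronidase, had 73.4, 69.7, 73.0 and 73.9 CPM with shGFP and 117, 115, 118 and 116 CPM with shAnkrd35 (0.69, SE 0.04, adjusted p = 2.34e-10). Spread within each group was under 2 CPM (SD), small beside the gap. Gla rose from 10.9, 12.2, 11.2 and 10.4 CPM to 19, 17.2, 17.7 and 16.4 CPM (0.65, SE 0.07, adjusted p = 2.28e-06). Man2b1, the lysosomal alpha-mannosidase, rose from 54.1, 53.5, 53.4 and 56.4 CPM to 81.6, 81.4, 82.7 and 77.1 CPM (0.57, SE 0.04, adjusted p = 5.68e-09). No library of either gene crossed to the other group. Not all glycosidases rose. Manba, the beta-mannosidase, fell from 38.9 to 43.4 CPM to 33.1 to 37.7 CPM (log2 fold change -0.23, SE 0.06, adjusted p = 0.00251). Gaa, Hexa and Naglu, which act on glycogen, gangliosides and heparan sulfate, gave 0.07, 0.10 and -0.09 and did not pass the test.

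The proteases and lipid enzymes mostly rose by smaller amounts. Ctsd, Ctsl, Ctsz and Ctsb had log2 fold changes of 0.43, 0.37, 0.28 and 0.23, and the tripeptidyl peptidase Tpp1 had 0.55. The palmitoyl thioesterase Ppt1 had 0.42 and Psap 0.36. These 7 genes all passed the test, and in each the groups did not overlap.

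The pump subunits split. Atp6v1a encodes the catalytic subunit that hydrolyses ATP, and lies at chr16:44085402-44139705 on the minus strand (mm10). It had 169, 174, 185 and 176 CPM in 2D shGFP and 122, 96.9, 100 and 113 CPM in 2D shAnkrd35. Every shAnkrd35 library was lower than every shGFP one, at 0.611 times the level (log2 fold change -0.71, SE 0.07, adjusted p = 2.33e-07). The membrane sector subunit Atp6v0d1 went the other way, from 46.5, 43.4, 46.4 and 43.5 CPM to 57.1, 65.6, 65.2 and 57.7 CPM (0.45, SE 0.05, adjusted p = 3.45e-06). The accessory subunit Atp6ap1 rose from 111 to 119 CPM to 137 to 155 CPM (0.37, SE 0.04, adjusted p = 2.17e-06), and the cytosolic sector subunit Atp6v1h from 36.5 to 42.7 CPM to 43.1 to 49.1 CPM (0.25, SE 0.07, adjusted p = 0.00468). Atp6v1b2, the B subunit that pairs with Atp6v1a, had 84.0 to 96.4 CPM against 90.1 to 103 CPM (0.13, SE 0.05, adjusted p = 0.0414), and Atp6v0a1, the a subunit of the membrane sector, 140 to 148 CPM against 146 to 165 CPM (0.12, SE 0.04, adjusted p = 0.037). These last 2 pairs of groups overlapped. The Atp6v1b2 call was lost on leaving out any 1 of 7 libraries (2D shGFP 2, 3 or 4, 2D shAnkrd35 2 or 3, 3D shGFP 3, 3D shAnkrd35 2, adjusted p 0.0502 to 0.133) and with the GC and length trend of each library removed (adjusted p = 0.195). That of Atp6v0a1 was lost on leaving out any 1 of 4 (2D shGFP 2 or 4, 2D shAnkrd35 1 or 2, adjusted p 0.0851 to 0.0944), and neither passed in a fit to the monolayer libraries alone (adjusted p = 0.116 and 0.0947).

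Membrane and transport proteins also went both ways. Cd63, a tetraspanin of lysosomes and exosomes, had 335, 295, 305 and 286 CPM with shGFP and 465, 543, 568 and 523 CPM with shAnkrd35 (0.78, SE 0.06, adjusted p = 3.13e-08). Its lowest shAnkrd35 library was far above its highest shGFP one. Scarb2, which carries glucocerebrosidase to lysosomes, fell from 166, 172, 177 and 169 CPM to 129, 106, 113 and 116 CPM (log2 fold change -0.56, SE 0.06, adjusted p = 5.1e-07). The calcium channel Mcoln1 rose from 34.9 to 36.5 CPM to 45.1 to 54.5 CPM (0.48, SE 0.07, adjusted p = 1.03e-05). Grn, Npc2 and Npc1 rose by 0.51, 0.35 and 0.18. Lamp1 gave 0.02 (SE 0.04, adjusted p = 0.73), with 350 to 383 CPM against 347 to 394 CPM.

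Lamp2, the other major membrane glycoprotein, had 198, 255, 221 and 243 CPM with shGFP and 226, 146, 172 and 205 CPM with shAnkrd35 (log2 fold change -0.31, SE 0.11, adjusted p = 0.0264). The groups overlapped, and its SE was the largest among the 34 genes in this contrast. The call was lost on leaving out any 1 of 4 libraries, 2D shGFP 2 or 4 or 2D shAnkrd35 2 or 3 (adjusted p 0.0686 to 0.0924), and in a fit to the 8 monolayer libraries alone (adjusted p = 0.0894). With the GC and length trend of each library removed, its direction turned to 0.24 (SE 0.06). Lamp2 is AT-rich, with 38.7% GC in its longest annotated transcript against a median of 51.4% for the 34 genes.

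Of the transcription factors, Tfe3 was lower, with 92.7, 86.1, 96.9 and 90.0 CPM in 2D shGFP and 81.5, 75.6, 73.4 and 71.1 CPM in 2D shAnkrd35 (log2 fold change -0.28, SE 0.05, adjusted p = 0.00033). Tfeb had 24.0 to 28.2 CPM against 22.8 to 30.1 CPM (0.02, SE 0.08, adjusted p = 0.812). Sqstm1 had 1110 to 1210 CPM against 1040 to 1180 CPM (-0.09, SE 0.05, adjusted p = 0.0907), and it passed the test without 2D shAnkrd35 library 2 (adjusted p = 0.0181). Among genes named here for their promoter element, Ctsa, Ctsd, Gla, Mcoln1 and Atp6v0d1 were higher and Atp6v1a was lower.

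Markers of other cell types also differed between the groups. Of 12 macrophage markers 3 were analysed here, Cd14, Lyz2 and Mrc1, and the defining Ptprc, Csf1r and Adgre1 were not among them. With shAnkrd35 in 2D, Cd14 (0.98) and Mrc1 (0.80) rose and Lyz2 (0.96, adjusted p = 0.297) did not pass. The summed level of the 3 was 40.5 to 42.3 CPM in 2D shGFP, 78.9 to 85.8 CPM in 2D shAnkrd35, 125 to 137 CPM in 3D shGFP and 148 to 169 CPM in 3D shAnkrd35. Epithelial markers summed, in the same order, to 5260 to 5760, 7030 to 8560, 5990 to 6180 and 6600 to 7180 CPM. Fibroblast markers (5 of 8 analysed) summed to 31.8 to 34.6, 20.8 to 21.9, 25.3 to 29 and 12.6 to 48.2 CPM. The part of these markers in the results was not tested, and in bulk RNA a change in the number of cells of a kind and a change in RNA per cell cannot be told apart. After removal of the GC and length trend, 22 genes rose and 8 fell in monolayer, against 3239 and 3629 of all 12216 genes. Of the enzymes, 12 then rose and 3 fell, with a median of 0.23. Ctsa (0.86), Neu1 (0.73) and Atp6v1a (-0.56) stayed past the threshold, Ctsz lost its call (-0.04), and Lamp1 (-0.16), Sqstm1 (-0.27), Hexa (-0.16) and Naglu (-0.30) passed as lower. Ctsd (0.19), Psap (0.15), Glb1 (0.23), Grn (0.33), Atp6v0d1 (0.18) and Atp6ap1 (0.21) passed at smaller values, and Npc1 (0.39), Atp6v0a1 (0.18) and Atp6v1h (0.87) at larger ones.

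**Figure D2:**
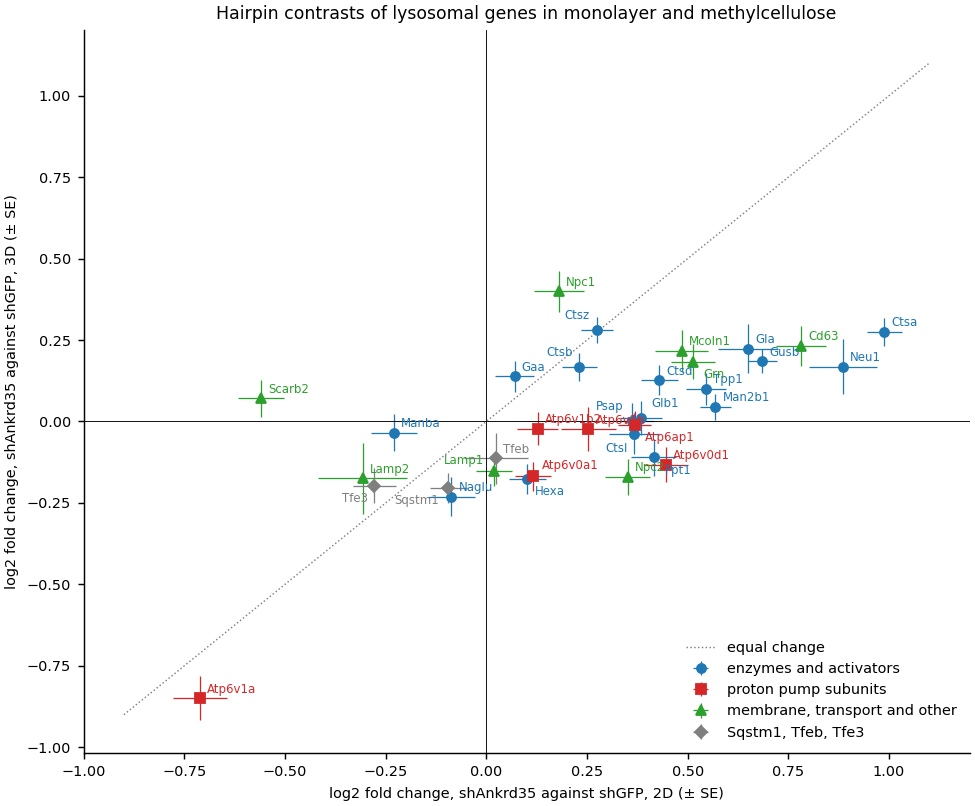
Log2 fold change of shAnkrd35 against shGFP in 2D (horizontal axis) and in 3D (vertical axis) for all 34 genes, with bars of 1 SE, and the dotted line marks equal change. Most enzymes lie right of 0 and below the line, such as Ctsa at 0.99 and 0.28, while Atp6v1a lies alone at the lower left (-0.71 and -0.85) and Scarb2 at the left.

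In methylcellulose the hairpins differed in fewer of these genes, and in both directions. Of the 34 genes, 11 rose and 8 fell with shAnkrd35, against 15% and 14.6% of all genes tested, and the median log2 fold change was -0.01 (all genes, 0). Groups did not overlap for 11 higher and 9 lower, against 18.8% and 19.4% of all genes. Enzymes had 7 higher and 2 lower of 17 (median 0.10), pump subunits 0 higher and 2 lower of 6 (median -0.08), and membrane, transport and other proteins 4 higher and 2 lower of 8 (median 0.13). With each library centred on its median gene, 9 rose and 4 fell, against 2009 and 1474 of all 12320 genes. The count of higher genes ranged from 7 to 12 when libraries were left out in turn, and was 7 without 3D shAnkrd35 library 1.

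Atp6v1a was again the lowest, with 206, 192, 215 and 217 CPM in 3D shGFP and 112, 115, 109 and 126 CPM in 3D shAnkrd35. The groups were far apart, at 0.555 times the level (log2 fold change -0.85, SE 0.07, adjusted p = 7.26e-08). Atp6v0a1 had 237, 240, 246 and 226 CPM against 219, 210, 201 and 215 CPM (-0.17, SE 0.04, adjusted p = 0.00975), a call that was lost with libraries centred on their median gene (adjusted p = 0.0678). The other 4 pump subunits did not pass. Atp6v0d1 gave -0.13 (SE 0.05, adjusted p = 0.0731), though its groups did not overlap (68.9 to 72.3 CPM against 60.1 to 67.2 CPM), and passed as lower without 2D shAnkrd35 library 1 (adjusted p = 0.0448), in a fit to the 8 libraries in 3D (adjusted p = 0.0248) and with the GC and length trend removed (adjusted p = 0.0317). Atp6v1h and Atp6v1b2 both gave -0.02, and Atp6ap1 gave -0.01.

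Npc1, which exports cholesterol from lysosomes, rose most in methylcellulose. It had 35.1, 32.1, 34.2 and 32.7 CPM with shGFP and 43.4, 42.1, 45.5 and 46.1 CPM with shAnkrd35 (0.40, SE 0.06, adjusted p = 0.000103). The carboxypeptidase Ctsz rose from 117, 120, 122 and 117 CPM to 151, 145, 141 and 141 CPM (0.28, SE 0.04, adjusted p = 5.06e-05). Ctsa rose from 186, 187, 180 and 181 CPM to 231, 218, 224 and 216 CPM (0.28, SE 0.04, adjusted p = 0.000105). In these 3 genes no library of one group reached the other. Cd63 rose from 325 to 349 CPM to 371 to 417 CPM (0.23, SE 0.06, adjusted p = 0.00919). Gla (0.22, SE 0.07, adjusted p = 0.0331) and Mcoln1 (0.22, SE 0.07, adjusted p = 0.0172) were called too. The Gla call was lost on leaving out any 1 of 5 libraries, 3D shGFP 1 or 2 or 3D shAnkrd35 1, 2 or 4 (adjusted p 0.0526 to 0.116). That of Mcoln1 was lost on leaving out any 1 of 3, 3D shGFP 4 or 3D shAnkrd35 1 or 3 (adjusted p 0.0518 to 0.0641), and with the GC and length trend removed (adjusted p = 0.0574).

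The genes that fell in methylcellulose included glycosidases, a cholesterol carrier, Lamp1, Sqstm1 and Tfe3. Naglu fell from 34.2, 34.8, 32.4 and 32.0 CPM to 27.1, 28.7, 28.7 and 29.1 CPM (-0.23, SE 0.06, adjusted p = 0.00672), and Hexa from 96.1 to 102 CPM to 86.4 to 89.8 CPM (-0.18, SE 0.05, adjusted p = 0.00764). Sqstm1 fell from 975, 980, 980 and 991 CPM to 870, 831, 879 and 833 CPM (-0.20, SE 0.05, adjusted p = 0.00294). Tfe3 fell from 84.9 to 87.3 CPM to 70 to 81.1 CPM (-0.20, SE 0.05, adjusted p = 0.00927), Lamp1 from 397 to 424 CPM to 368 to 381 CPM (-0.15, SE 0.04, adjusted p = 0.0137), and Npc2, a soluble cholesterol carrier, from 330 to 349 CPM to 289 to 319 CPM (-0.17, SE 0.06, adjusted p = 0.0294). None of these 6 pairs of groups overlapped. Centring on the median gene ended the calls of Hexa (adjusted p = 0.056), Lamp1 (adjusted p = 0.0989) and Npc2 (adjusted p = 0.117), and Npc2 was also lost on leaving out any 1 of 5 libraries, 3D shGFP 1, 2 or 4 or 3D shAnkrd35 2 or 4 (adjusted p 0.0633 to 0.0885). Tfeb gave -0.11 (SE 0.08, adjusted p = 0.315).

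Compared gene by gene, 10 genes were higher with shAnkrd35 under both growth types (Cd63, Ctsa, Ctsb, Ctsd, Ctsz, Gla, Grn, Gusb, Mcoln1 and Npc1), and 2 were lower under both (Atp6v1a and Tfe3). Atp6v0a1 and Npc2 were higher in 2D and lower in 3D. Of all genes tested, 29% were higher and 28.8% lower in 2D, and 15% and 14.6% in 3D. The share of all genes called in both was not counted, so these joint counts are a description only. The Ctsd call in 3D was lost with plain library totals, with centring on the median gene and on leaving out most single libraries. It was also lost with the GC and length trend removed (0.08, limma adjusted p = 0.17). With that trend removed, Ctsz (-0.04) did not pass in 2D and Mcoln1 (0.19) did not pass in 3D. Cd63, Ctsa, Ctsb, Gla, Grn, Gusb and Npc1 then stayed higher under both growth types. The hairpin effects were then compared directly, as the effect in 3D minus that in 2D. The difference was below 0 and past the threshold for 21 of the 34 genes, against 18.6% of all genes tested, and above 0 for 1, Scarb2, against 17.1%. The median difference was -0.28, where that of all genes was 0.003. It passed below 0 for 12 of 17 enzymes (median -0.37), 4 of 6 pump subunits (median -0.28) and 5 of 8 membrane, transport and other proteins (median -0.22).

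The largest differences were those of Neu1 (-0.72, SE 0.12, adjusted p = 0.000312) and Ctsa (-0.71, SE 0.06, adjusted p = 4.75e-07). Ctsa had 222 ± 13.6 and 222 ± 6.81 CPM in 2D and 3D shAnkrd35 (SD, n = 4 each), and the shGFP groups lay below at 112 ± 1.82 and 183 ± 3.36 CPM. With the GC and length trend removed, Ctsa was higher in 3D than in 2D with shAnkrd35 as well (0.26, SE 0.04, adjusted p = 5.37e-06). Neu1 had 38.8 ± 5.46 and 44.1 ± 2.18 CPM in 2D and 3D shAnkrd35 against 20.8 ± 1.09 and 39.3 ± 2.21 CPM in the shGFP groups. So for both genes 2D shGFP was the group that stood lowest. Atp6v0d1 (-0.58, SE 0.08, adjusted p = 3.83e-05), Cd63 (-0.55, SE 0.09, adjusted p = 0.000241), Ppt1 (-0.53, SE 0.08, adjusted p = 0.000151) and Man2b1 (-0.53, SE 0.06, adjusted p = 4.55e-06) came next. Scarb2 went the other way (0.63, SE 0.08, adjusted p = 2.88e-05), its level being 171 ± 5 CPM in 2D shGFP against 116 ± 9.66, 136 ± 4.45 and 144 ± 8.86 CPM in the other groups.

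The remaining pump subunits gave differences of -0.38 for Atp6ap1 (SE 0.06, adjusted p = 0.000213) and -0.28 for Atp6v0a1 (SE 0.06, adjusted p = 0.00337) and for Atp6v1h (SE 0.10, adjusted p = 0.0346). The Atp6v1h call was lost on leaving out any 1 of 8 libraries (2D shGFP 1 or 3, 2D shAnkrd35 3 or 4, 3D shGFP 4, 3D shAnkrd35 1, 2 or 3, adjusted p 0.0529 to 0.0756). Atp6v1a gave -0.14 (SE 0.10, adjusted p = 0.267) and Atp6v1b2 -0.15 (SE 0.07, adjusted p = 0.114), which passed without 2D shGFP library 1 (adjusted p = 0.0363). Atp6v1a was lower with shAnkrd35 under both growth types, and no difference between them was detectable. With the GC and length trend removed its difference passed, at -0.24 (SE 0.06, adjusted p = 0.00642). Mcoln1 (-0.27, SE 0.09, adjusted p = 0.0311) lost its call on leaving out any 1 of 7 libraries (2D shGFP 3, 2D shAnkrd35 2 or 4, 3D shGFP 1 or 3, 3D shAnkrd35 2 or 4, adjusted p 0.057 to 0.0679). Lamp1 (-0.17, SE 0.06, adjusted p = 0.04) lost its call on leaving out any 1 of 11 libraries, all but 2D shGFP 1 and 3, 2D shAnkrd35 1, 3D shGFP 3 and 3D shAnkrd35 2 (adjusted p 0.0551 to 0.0858), and with centring on the median gene (adjusted p = 0.0734), and gave 0.02 with the trend removed. With that trend removed, 20 of the 34 differences passed the threshold below 0 and 1 above, against 2112 and 2309 of all 12216 genes. Those of Ctsd (-0.11) and Hexa (-0.05) no longer passed, and those of Psap (-0.18), Glb1 (-0.21) and Atp6v0d1 (-0.34) passed at smaller sizes. Tfeb, Tfe3 and Sqstm1 gave -0.14, 0.08 and -0.11 and did not pass.

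With the GFP hairpin, growth in methylcellulose went with higher levels of the 6 pump subunits of the list, while its enzymes went both ways. Of the 34 genes, 19 were higher and 8 lower in 3D than in 2D, against 35.2% and 32.1% of all genes tested, and their median log2 fold change was 0.18, where that of all genes was 0.03. Groups did not overlap for 18 higher and 8 lower genes, against 33.3% and 31.6%. All 6 pump subunits rose (median 0.43), while enzymes had 8 higher and 5 lower of 17 (median 0.11) and membrane, transport and other proteins 4 higher and 2 lower of 8 (median 0.11). With libraries centred on the median gene, 15 rose and 10 fell, against 3647 and 4557 of all 12320 genes. Scaling to plain library totals moved the median of all genes to 0.15 and gave 22 higher and 6 lower, against 5569 and 2927 of all genes.

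Atp6v0a1 rose most among pump subunits, from 148, 140, 146 and 140 CPM in 2D to 237, 240, 246 and 226 CPM in 3D (0.73, SE 0.04, adjusted p = 4.11e-10). Atp6v0d1 rose from 46.5, 43.4, 46.4 and 43.5 CPM to 70.1, 71.3, 68.9 and 72.3 CPM (0.65, SE 0.05, adjusted p = 1.46e-08). Atp6v1h rose from 36.5 to 42.7 CPM to 58.0 to 66.2 CPM (0.61, SE 0.07, adjusted p = 6.4e-07). In none of these did the groups touch. Smaller rises were those of Atp6ap1 (0.26, SE 0.04, adjusted p = 5.26e-05), Atp6v1a (0.24, SE 0.07, adjusted p = 0.00525) and Atp6v1b2 (0.23, SE 0.05, adjusted p = 0.000716). After removal of the GC and length trend, 5 of the 6 still rose, and Atp6v1h, whose longest annotated transcript has 37.6% GC, gave -0.02.

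Among enzymes, Man2b1 rose from 53.4 to 56.4 CPM to 112 to 118 CPM (1.1, SE 0.04, adjusted p = 2.25e-13), Neu1 from 19.7 to 22.3 CPM to 36.5 to 41.8 CPM (0.92, SE 0.08, adjusted p = 5.44e-08) and Ctsa from 110 to 114 CPM to 180 to 187 CPM (0.71, SE 0.04, adjusted p = 2.26e-10). These were also among the genes with the largest monolayer hairpin effect, a comparison that uses the same 2D shGFP libraries. Naglu fell from 54.6, 46.7, 53.3 and 49.9 CPM to 34.2, 34.8, 32.4 and 32.0 CPM (-0.61, SE 0.06, adjusted p = 9.77e-08). Gaa fell from 272 to 305 CPM to 196 to 210 CPM (-0.51, SE 0.05, adjusted p = 7.66e-08) and Ctsz from 147 to 162 CPM to 117 to 122 CPM (-0.38, SE 0.04, adjusted p = 3.65e-07). No 3D library of these 3 enzymes reached the 2D range.

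Of the remaining genes, Scarb2 (-0.32, SE 0.06, adjusted p = 8.92e-05), Npc1 (-0.28, SE 0.06, adjusted p = 0.000645) and Sqstm1 (-0.24, SE 0.05, adjusted p = 0.000209) were lower in 3D. Lamp2 (0.41, SE 0.11, adjusted p = 0.00385), Mcoln1 (0.38, SE 0.07, adjusted p = 7.08e-05), Tfeb (0.32, SE 0.08, adjusted p = 0.00176) and Lamp1 (0.17, SE 0.04, adjusted p = 0.00304) were higher. Tfeb had 24.0 to 28.2 CPM in 2D and 30.4 to 35.8 CPM in 3D, with no overlap. The Lamp1 rise did not pass with libraries centred on the median gene (adjusted p = 0.165). Tfe3 gave -0.09 (SE 0.05, adjusted p = 0.148), fell with that centring (adjusted p = 0.0256) and rose with the GC and length trend removed (0.12, adjusted p = 0.0202), so its direction depended on the processing. With the trend removed Lamp2 gave -0.12 and did not pass, Tfeb rose by 0.69, and Gaa (-0.25), Sqstm1 (-0.10) and Atp6v1a (0.13) passed at smaller sizes.

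**Figure D3:**
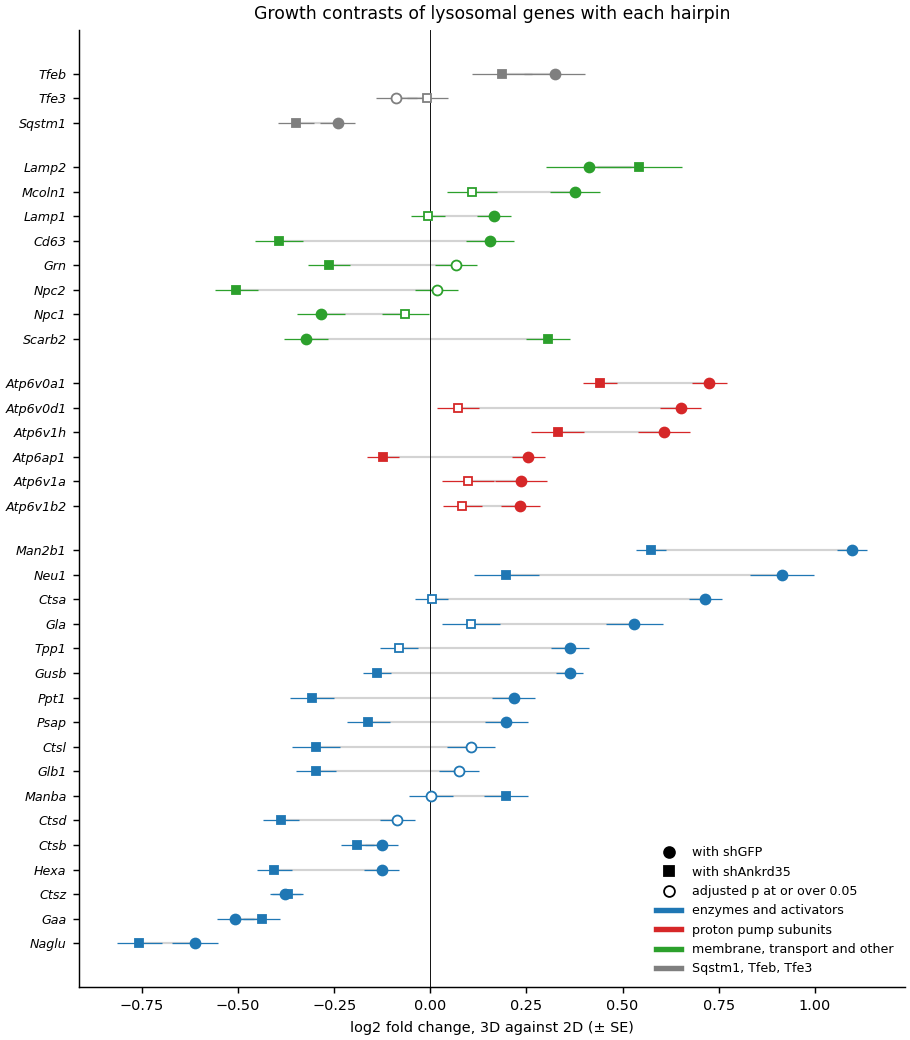
Log2 fold change of 3D against 2D (horizontal axis, bars of 1 SE) for each of the 34 genes, as circles with shGFP and squares with shAnkrd35. Colours give the role, and open symbols did not pass the adjusted p threshold. All 6 pump subunits are to the right of 0 with shGFP, and for most enzymes the square lies left of the circle, as for Ctsa (0.71 and 0.00) and Psap (0.20 and -0.16).

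With the Ankrd35 hairpin, the same change of growth went with lower levels of most enzymes. Of the 34 genes, 8 were higher and 16 lower in 3D, against 34.4% and 36% of all genes tested, and their median was -0.07 (all genes, -0.02). Groups did not overlap for 6 higher and 14 lower genes, against 29.9% and 29.3%. Enzymes had 3 higher and 11 lower (median -0.19), pump subunits 2 higher and 1 lower (median 0.09), and membrane, transport and other proteins 2 higher and 3 lower (median -0.04). This split depended on the processing. Plain library totals gave 13 higher and 13 lower, against 4999 and 3469 of all 12320 genes. Centring on the median gene gave 5 and 18, against 3620 and 5285. Removal of the GC and length trend gave 15 and 9, against 4742 and 3485 of 12216 genes. With that trend removed, enzymes had 6 higher and 4 lower and pump subunits 4 higher and 2 lower.

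Naglu fell most, from 44.9, 51.5, 46.1 and 49.9 CPM in 2D to 27.1, 28.7, 28.7 and 29.1 CPM in 3D (-0.76, SE 0.06, adjusted p = 1e-08). Npc2 fell from 385, 455, 469 and 427 CPM to 312, 302, 319 and 289 CPM (-0.51, SE 0.06, adjusted p = 6.3e-07). Gaa (-0.44, SE 0.05, adjusted p = 5.44e-07), Hexa (-0.41, SE 0.05, adjusted p = 8.29e-07), Ctsd (-0.39, SE 0.05, adjusted p = 1.18e-06) and Cd63 (-0.39, SE 0.06, adjusted p = 2.93e-05) fell as well, and in all 6 the groups did not overlap. With the GC and length trend removed, Naglu (-0.40), Npc2 (-0.29) and Gaa (-0.14) still passed, while Hexa (-0.08), Ctsd (-0.07) and Cd63 (-0.08) did not.

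Man2b1 rose from 77.1 to 82.7 CPM to 117 to 125 CPM (0.57, SE 0.04, adjusted p = 1.98e-09), and Scarb2 from 106 to 129 CPM to 132 to 154 CPM (0.31, SE 0.06, adjusted p = 0.000133), and both remained past the threshold with the trend removed. Lamp2 rose from 146 to 226 CPM to 246 to 298 CPM (0.54, SE 0.11, adjusted p = 0.000404), but turned to -0.47 with the trend removed. Manba rose as well (0.20, SE 0.06, adjusted p = 0.00525). Neu1 (0.20, SE 0.08, adjusted p = 0.0449) and Tfeb (0.19, SE 0.08, adjusted p = 0.0451) were at the threshold, with overlapping groups. Leaving out any 1 of 8 libraries ended the Neu1 call (2D shGFP 3, 2D shAnkrd35 1 or 4, 3D shGFP 1 or 4, 3D shAnkrd35 1, 2 or 3, adjusted p 0.0533 to 0.175), and any 1 of 9 that of Tfeb (2D shGFP 2, 2D shAnkrd35 1, 3 or 4, 3D shGFP 1 or 3, 3D shAnkrd35 1, 2 or 3, adjusted p 0.0513 to 0.166). Centring on the median gene ended both as well (adjusted p = 0.281 and 0.326).

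Of the pump subunits, Atp6v0a1 rose from 146 to 165 CPM to 201 to 219 CPM (0.44, SE 0.04, adjusted p = 2.77e-07) and Atp6v1h from 43.1 to 49.1 CPM to 55.2 to 66.2 CPM (0.33, SE 0.07, adjusted p = 0.000371). With the trend removed Atp6v0a1 kept its value (0.44) and Atp6v1h turned to -0.85. Atp6ap1 was called lower (-0.12, SE 0.04, adjusted p = 0.0156), with overlapping groups, lost the call without 2D shAnkrd35 library 2 or 3 (adjusted p = 0.051 and 0.0607) and with plain totals (adjusted p = 0.499), and turned to 0.14 with the trend removed. Atp6v1a (0.10, SE 0.07, adjusted p = 0.199), Atp6v1b2 (0.08, SE 0.05, adjusted p = 0.156) and Atp6v0d1 (0.07, SE 0.05, adjusted p = 0.239) did not pass, and all 3 passed as higher with plain totals (adjusted p = 0.0137, 0.00982 and 0.0205). Without 2D shAnkrd35 library 1, Atp6v1a passed at 0.16 (adjusted p = 0.0239), and with the trend removed it passed as lower (-0.11, adjusted p = 0.0342). Sqstm1 fell (-0.35, SE 0.05, adjusted p = 4.26e-06), a call that was lost with the trend removed (-0.06, adjusted p = 0.0938). Mcoln1 (0.11, SE 0.07, adjusted p = 0.143), Lamp1 (-0.01, SE 0.04, adjusted p = 0.911) and Tfe3 (-0.01, SE 0.05, adjusted p = 0.895) did not pass. Mcoln1 passed without 3D shAnkrd35 library 4 (adjusted p = 0.0442) and with plain totals (adjusted p = 0.0201).

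Set side by side, 6 genes were higher in 3D with either hairpin (Atp6v0a1, Atp6v1h, Lamp2, Man2b1, Neu1 and Tfeb) and 6 were lower with either (Ctsb, Ctsz, Gaa, Hexa, Naglu and Sqstm1). Of all genes tested, 35.2% were higher and 32.1% lower with shGFP, and 34.4% and 36% with shAnkrd35. How many of all genes were called with both hairpins was not counted, so joint counts here are a description only. Atp6ap1, Cd63, Gusb, Ppt1 and Psap were higher in 3D with shGFP and lower with shAnkrd35, and Scarb2 was the reverse. All 6 of these passed the direct test of the difference given above. None of the 5 kept opposite calls with the GC and length trend removed. Atp6ap1 (0.14), Gusb (0.11) and Psap (0.14) then passed as higher in 3D with shAnkrd35, Cd63 (-0.08) did not pass there, and Ppt1 (0.10) did not pass with shGFP. Scarb2 kept both calls (-0.33 and 0.25). Of the genes called the same way with either hairpin, Atp6v0a1, Man2b1, Neu1, Tfeb, Gaa and Naglu kept both calls with the trend removed. Atp6v1h (-0.02 with shGFP and -0.85 with shAnkrd35) and Lamp2 (-0.12 and -0.47) were then higher with neither. Ctsb and Hexa passed with neither hairpin, and Ctsz (-0.01) and Sqstm1 (-0.06) did not pass with shAnkrd35.

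**Figure D4:**
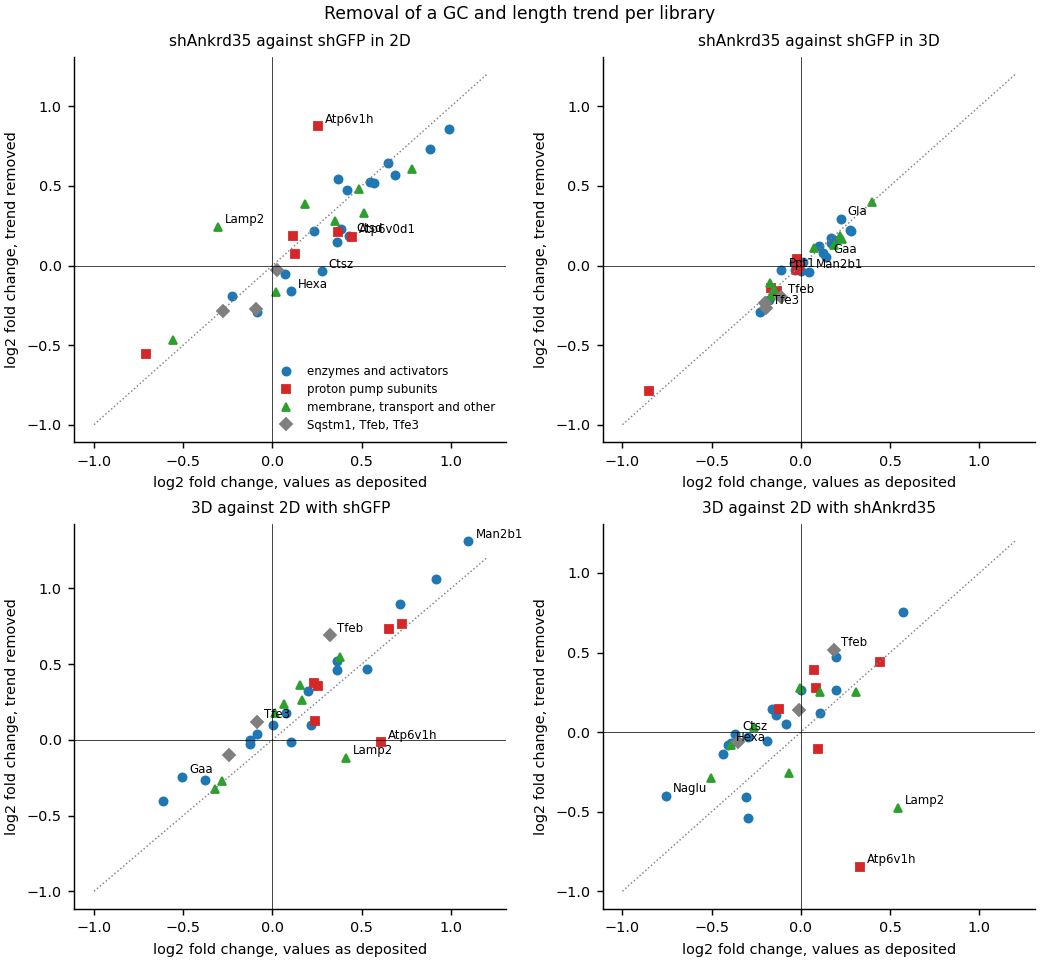
Log2 fold change of the 34 genes with values as deposited (horizontal axes) and after removal of each library's trend with GC content and length (vertical axes) in 4 contrasts. The dotted line marks equal values, and the 6 genes farthest from it are named in each panel. In both growth contrasts the AT-rich Atp6v1h and Lamp2 lie far below the line, and with shAnkrd35 they turn from 0.33 and 0.54 to -0.85 and -0.47.

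Enzymes and pump subunits were compared within each library, which needs no scaling between libraries but leaves in each library's GC and length trend. The mean log2 CPM per kb of the 17 enzymes was 4.68 ± 0.02 in 2D shGFP, 5.07 ± 0.05 in 2D shAnkrd35, 4.84 ± 0.02 in 3D shGFP and 4.90 ± 0.02 in 3D shAnkrd35 (SD, n = 4). That of the 6 pump subunits was 4.22 ± 0.01, 4.32 ± 0.02, 4.67 ± 0.03 and 4.47 ± 0.04 in the same order. Enzymes minus pump subunits came to 0.44 to 0.47 in 2D shGFP, 0.67 to 0.80 in 2D shAnkrd35, 0.15 to 0.20 in 3D shGFP and 0.39 to 0.47 in 3D shAnkrd35. The difference was thus larger with shAnkrd35 than with shGFP under each growth type, and smaller in 3D than in 2D with each hairpin. With medians of genes in place of means the group values were -0.27, 0.27, -0.67 and -0.05, so the sign turned in 3 groups. The value with shAnkrd35 was still above that with shGFP in each growth type, and that in 3D below that in 2D with each hairpin. It is a description of chosen genes, with no test. Removal of the GC and length trend gave group means of 0.43, 0.56, 0.30 and 0.53, and 3D shAnkrd35 then lay above 2D shGFP. With shAnkrd35 the value in 3D (0.53) was then only slightly below that in 2D (0.56), so the growth gap with that hairpin depended on the processing.

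Atp6v1a stood apart from its partners. Its log2 CPM minus the mean of the other 5 subunits was 1.11 to 1.30 in 2D shGFP and 0.05 to 0.44 in 2D shAnkrd35, then 0.85 to 1.01 in 3D shGFP and 0.12 to 0.25 in 3D shAnkrd35. Without Atp6v1a, a choice made after its values were seen, the group means of enzymes minus pump subunits were 0.59, 0.72, 0.26 and 0.40. The order of the groups stayed, and the gap between hairpins narrowed.

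**Figure D5:**
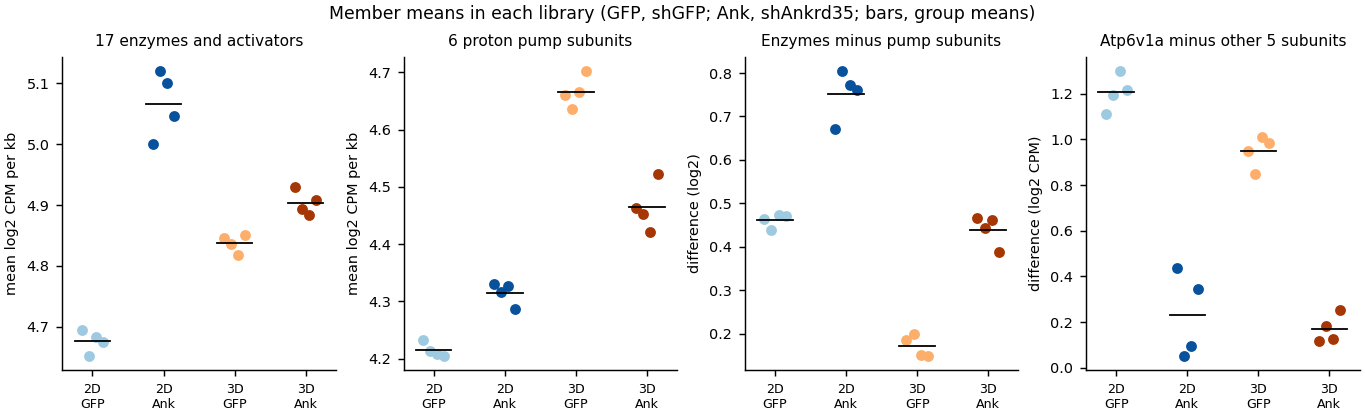
For each library, from left to right, the mean log2 CPM per kb of the 17 enzymes, that of the 6 pump subunits, their difference, and the log2 CPM of Atp6v1a minus the mean of the other 5 subunits. Points are libraries and bars are group means. Enzymes are highest in 2D shAnkrd35 (5 to 5.12), pump subunits in 3D shGFP (4.64 to 4.70), and Atp6v1a stands lower against its partners in both shAnkrd35 groups.

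Further genes of the pathway were counted from lists of other lysosomal genes, in the main fit to values as deposited only. These counts stand beside the shares of all genes called higher and lower, which were 29% and 28.8% for the hairpins in 2D, 15% and 14.6% in 3D, 35.2% and 32.1% for growth with shGFP and 34.4% and 36% with shAnkrd35. For the difference they were 17.1% above 0 and 18.6% below. The other pump subunits had 9 of 13 tested higher and 0 lower with shAnkrd35 in 2D (median 0.30), Tcirg1 (0.50, SE 0.08) and Atp6v0e (0.40, SE 0.06) among them. In 3D 1 was higher, Atp6v0a2 (0.21, SE 0.05), and 0 lower (median -0.02). In 3D against 2D they had 8 higher and 0 lower with shGFP (median 0.22), led by Atp6v1d (0.61, SE 0.05), and 3 higher and 4 lower with shAnkrd35 (median -0.13). The difference of hairpin effects passed the threshold below 0 for 7 and above 0 for 0 (median -0.32), and 6 did not pass. None of these 13 subunits was called lower with shAnkrd35 in 2D or 3D, where Atp6v1a fell in both. Factors of pump assembly and regulation had 7 of 9 higher and 0 lower in 3D with either hairpin, led by Oxr1 (1.35, SE 0.13, and 1.5, SE 0.13), while with shAnkrd35 in 2D 1 was higher, Tmem199 (0.85, SE 0.15), and 3 lower, with Vma21 at -0.49 (SE 0.12).

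Of 38 other lysosomal hydrolases tested, 12 were higher and 9 lower with shAnkrd35 in 2D (median 0.09), near the shares of all genes (29% and 28.8%). The contrast with the 13 and 1 of 17 above was not tested. The proline-specific peptidase Dpp7 (1.14, SE 0.05) and the hyaluronidase Hyal2 (1.01, SE 0.05) were higher, and the carboxypeptidase Scpep1 (-0.78, SE 0.04) and the iduronate sulfatase Ids (-0.58, SE 0.10) lower. In 3D 7 were higher and 7 lower (median -0.05), against 15% and 14.6% of all genes, with Dpp7 (0.61, SE 0.05) higher and cathepsin C (Ctsc) lower (-0.40, SE 0.05). In 3D against 2D, 15 were higher and 12 lower with shGFP (median 0.07), and 7 higher and 18 lower with shAnkrd35 (median -0.18). These counts were not repeated with the GC and length trend removed, which changed the split of the 17 enzymes with shAnkrd35 (above). Cathepsin H (Ctsh) rose with either hairpin (1.70, SE 0.06, and 1.58, SE 0.06), as did the acid lipase Lipa (0.67, SE 0.05, and 0.54, SE 0.05), and legumain (Lgmn) fell (-1.02, SE 0.06, and -0.92, SE 0.06).

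Other lysosomal membrane proteins had 15 of 23 higher and 2 lower with shAnkrd35 in 2D (median 0.23), 5 and 3 in 3D (median -0.01, all genes 15% and 14.6%), 15 and 1 in 3D against 2D with shGFP (median 0.27), and 12 and 3 with shAnkrd35 (median 0.19). The amino acid transporter Slc36a1 was higher with shAnkrd35 in 2D (0.43, SE 0.06) and in 3D (0.29, SE 0.06). Genes of mannose 6-phosphate sorting, which address enzymes to lysosomes, had 7 of 10 higher and 0 lower with shAnkrd35 in 2D (median 0.23) and 2 higher and 1 lower in 3D (median 0.12). Nagpa, which uncovers the mannose 6-phosphate tag, was higher in both (0.90, SE 0.08, and 0.40, SE 0.08).

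The Ragulator, Rag and folliculin genes, which tie nutrient sensing to the lysosomal surface and control TFEB and TFE3, had 5 of 16 higher and 4 lower with shAnkrd35 in 2D (median 0.06) and 3 higher and 5 lower in 3D (median -0.03). The 2D counts were near the shares of all genes (29% and 28.8%). The GTPase Rraga was lower in both (-0.37, SE 0.06, and -0.58, SE 0.06), and folliculin (Flcn) was higher in 2D (0.73, SE 0.09). Autophagy genes had 8 of 24 higher and 10 lower in 2D (median -0.02) and 1 higher and 3 lower in 3D (median -0.03), where 15% and 14.6% of all genes passed. With shGFP in 3D against 2D the Ragulator list had 10 higher and 3 lower (median 0.25), and the autophagy list 8 higher and 5 lower (median 0.09). Mitf, a relative of Tfeb, was lower with shAnkrd35 in 2D (-0.92, SE 0.20, adjusted p = 0.00119). Its level was low, at 6.48 to 7.96 CPM in 2D shGFP and a wide 2.26 to 6.21 CPM in 2D shAnkrd35. In 3D Mitf gave -0.12 and did not pass. Values here not marked as CPM are log2 fold changes from limma. Apart from Mitf in 3D, every gene named in these paragraphs on further lists passed at an adjusted p under 0.05.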

How the data were processed

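RNA of 16 libraries was analysed from 1 table in which the deposited values are on the log2 scale, 1 column per library, with 0 columns of other samples. The submitters' processing notes name mm10 and the tools Trimmomatic 0.38, STAR 2.5.1b and edgeR. How reads were counted, with which annotation and whether by strand is not given in the sources used here. Without strand, reads of overlapping genes cannot be told apart. Read from the numbers, they are log2 CPM on effective library sizes, with a prior averaging 2 reads, and 100% of values gave whole reads within 0.01 reads. These reads gave the CPM levels. Fold changes include the prior and are on the log2 scale. The table had been filtered on low genes before deposit.

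limma 3.58.1 (R 4.3.3, statmod 1.5.0), with trend and robust fitting, was run on the deposited log2 values in a cell-means model of the 4 groups with 12 residual degrees of freedom. The 12320 genes with 1 CPM or more in 4 or more libraries were tested, Ankrd35 not among them. Benjamini-Hochberg adjustment was over all genes within each of 5 contrasts, at 0.05. The steps were tested on simulated data. SE is that of the log2 fold change.

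The 34 genes and all lists were chosen with earlier results of these data known. Named with values in each contrast are the pump subunits, Lamp1, Sqstm1, Tfeb, Tfe3, Mcoln1 and up to 6 called genes each way, and from each further list up to 2 each way by p. Other genes of the 34 were added after their values were seen. GENCODE M21 symbols matched 12217 genes (99.2%) and gave length and GC content. GC and length trends were removed per library with splines of 4 degrees of freedom. Replicates of a group differed by more than counting noise (chi-square per degree of freedom 2.85 to 44.92). Python 3.11.15 was used for the rest.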

Additional observations from a re-analysis of the deposited data

Results flagged for a closer look

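In 6 of 136 checks of a gene within a group of 4 libraries, the lowest or highest library lay farther from the others than Dixon's 95% critical value allows, where chance gives about 1 in 20. Ctsb was low in 3D shGFP library 3 (381 CPM), Ctsd in 3D shAnkrd35 library 2 (329 CPM), and Ctsl (301 CPM) and Grn (207 CPM) in 2D shAnkrd35 library 1, the library with high Gm23935 and Lars2. Atp6v1h was high in 3D shGFP library 4 (66.2 CPM), and Atp6v1b2 in 3D shAnkrd35 library 4 (107 CPM).

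The hairpin effect differed between 3D and 2D, by the interaction term of limma at an adjusted p under 0.05, for 22 of the 34 genes, against 18.6% of all genes below 0 and 17.1% above. Differences, in log2 units as 3D minus 2D, were -0.72 for Neu1, -0.71 for Ctsa, -0.53 for Ppt1, -0.53 for Man2b1, -0.50 for Gusb, -0.45 for Tpp1, -0.43 for Gla, -0.40 for Ctsl, -0.37 for Glb1, -0.36 for Psap, -0.30 for Ctsd and -0.28 for Hexa among enzymes. Pump subunits had -0.58 for Atp6v0d1, -0.38 for Atp6ap1, -0.28 for Atp6v0a1 and -0.28 for Atp6v1h. The others were -0.55 for Cd63, -0.52 for Npc2, -0.33 for Grn, -0.27 for Mcoln1, -0.17 for Lamp1 and 0.63 for Scarb2.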

How the results depend on the processing

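Counts of the 34 genes called were within 1.5 times of those reported for most settings, and the exceptions follow. With the GC and length trend removed, 8 genes were lower with shAnkrd35 in 2D, and in 3D against 2D with shAnkrd35 15 were higher and 9 lower. In that contrast plain library totals gave 13 higher and centring on the median gene 5. Centring gave 4 lower with shAnkrd35 in 3D. The difference of hairpin effects passed above 0 for 3 genes without both 2D libraries numbered 1, and for 1 to 3 when libraries were left out in turn. With shAnkrd35 in 3D, 7 to 12 genes were higher when libraries were left out in turn. Some directions turned with the GC and length trend removed, at the same values with the replicate block added. Among genes called with or without that removal, they were Lamp2 (0.24), Lamp1 (-0.16), Hexa (-0.16) and Ctsz (-0.04) with shAnkrd35 in 2D, Atp6v1h (-0.016), Lamp2 (-0.12) and Tfe3 (0.12) in 3D against 2D with shGFP, and Lamp1 (0.015) and Lamp2 (-0.35) in the difference. Genes called in neither fit are not listed. In 3D against 2D with shAnkrd35 they were Lamp2 (-0.47), Atp6v1h (-0.85), Atp6v1a (-0.11), Atp6ap1 (0.14), Lamp1 (0.28), Gusb (0.11), Psap (0.14), Grn (0.04) and Tfe3 (0.14). The cause was not tested. GC content came from the longest annotated transcript, which need not be the one expressed. Enzymes minus pump subunits, in the order 2D shGFP, 2D shAnkrd35, 3D shGFP and 3D shAnkrd35, was -0.27, 0.27, -0.67 and -0.052 with medians of genes in place of means, 0.43, 0.56, 0.30 and 0.53 with the trend removed, and 0.59, 0.72, 0.26 and 0.40 without Atp6v1a.

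Deviations of same-numbered libraries had correlations of -0.483 to 0.206 for the hairpin pair in 2D and -0.197 to 0.153 in 3D. All 4 were over 0.1 (0.119 to 0.186) between 2D shGFP and 3D shAnkrd35, groups that no contrast compares directly. In no compared pair of groups were all 4 over 0.1, so the numbers are not taken as pairs. With the replicate block, 22 genes rose and 5 fell in 2D, against 3499 and 3468 of all 12320 genes. In 3D 9 rose and 8 fell (all genes, 1748 and 1700). For growth, 18 rose and 8 fell with shGFP (all genes, 4259 and 3897), and 8 and 16 with shAnkrd35 (4204 and 4385). The difference passed above 0 for 1 and below for 19 (all genes, 1891 and 2121). Among the genes named by the rule, calls then lost were those of Atp6v1b2 in 2D (adjusted p = 0.0609), Gla in 3D (adjusted p = 0.0604) and, for the difference, Mcoln1 and Lamp1 (adjusted p = 0.0529 and 0.0645), by limma. A fit to the 2 groups compared was not possible for the difference, which uses all 4. For the named genes, leaving out 1 library kept direction and side of the threshold in 1458 of 1536 refits. Depth limits Ankrd35, not the 34 genes.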
